A study of Homo sapiens with 6 samples.

Results

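The leukocyte immunoglobulin-like, SIRP and LAIR receptors described here are 10 genes, taken by gene symbol from the 17513 genes of the deposited count and FPKM tables: LILRA1, LILRA2, LILRA5, LILRB1, LILRB2, LILRB3, LILRB4, SIRPA, SIRPB1 and LAIR1. All 10 had a row in both tables. Polyadenylated RNA of 6 libraries was sequenced. The series description gives the cells as macrophages made from THP1, a human monocytic leukemia line, and exposed over 48 h to culture medium taken from KYSE150, an esophageal squamous carcinoma line of human origin. In 3 libraries the medium came from KYSE150 cells with the hairpin shSPP1#2, directed at SPP1 (osteopontin), and in 3 from KYSE150 cells with the control hairpin shNC. They are called shSPP1#2 medium and shNC medium below. Only 1 hairpin against SPP1 is represented, and all 6 libraries rest on a single receiving line and a single conditioning line. Whether replicates were separate cultures is not stated in the labels. The p-values therefore reflect the library-to-library spread alone, which may be technical.

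These receptors are immunoglobulin-domain proteins of the myeloid surface that come in inhibitory and activating forms with closely related outer parts. The inhibitory forms, which here are LILRB1, LILRB2, LILRB3, LILRB4, SIRPA and LAIR1, carry tyrosine motifs in a long cytoplasmic tail and recruit the phosphatases encoded by PTPN6, PTPN11 and INPP5D. The activating forms LILRA1, LILRA2 and LILRA5 have short tails and signal through the Fc receptor gamma chain (FCER1G), and SIRPB1 signals through DAP12 (TYROBP). In macrophages SIRPA is known as the receptor for CD47, a surface protein that restrains phagocytosis, and LILRB1 and LILRB2 as receptors for MHC class I.

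The sample labels name KYSE150 itself as the source, so the cell type was examined by markers. Of 18 macrophage markers, 16 reached 1 FPKM in every library, with list medians of 73.4 to 78.7 FPKM. Of 13 squamous epithelial markers present in the tables, 0 reached 1 FPKM in any library, and the most abundant, KRT16, measured 0.55 to 0.93 FPKM. Of 6 B cell markers 0 reached 1 FPKM, and of 8 T and NK markers 5 or 6 did, led by GNLY at 214 to 274 FPKM. The summed levels of the macrophage list were 2579 to 2653 FPKM in the shSPP1#2 libraries, against 2644 to 2847 FPKM in the shNC libraries. Those of the T and NK list were 238 to 265 FPKM in the shSPP1#2 libraries, against 259 to 303 FPKM in the shNC libraries. GNLY alone made up most of these T and NK sums. The part of these markers in the results below was not tested. Library totals lay between 18113591 (shNC replicate 2) and 20626346 (shNC replicate 3) estimated counts. On the first principal component of log2 CPM (33.3% of the variance) shSPP1#2 replicate 2 and shNC replicate 2 lay at 7.19 and 9.87, and the other libraries between -7.37 and 0.55. SPP1 itself averaged 2002 ± 65.4 FPKM in shSPP1#2 medium and 1992 ± 93.6 FPKM in shNC medium (SD, n = 3 each). These are values of the receiving cells and do not check the knockdown in KYSE150.

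Genes of these families hold stretches of identical coding sequence, and fragments read only within such stretches cannot be placed by sequence. The stretches are shown because they bear on how far single members can be told apart. Each was read from GENCODE v29 transcripts (GRCh38), as the longest exactly shared run between the longest coding transcripts of a pair, with up to 12 bases on either side. Capitals mark bases that differ between the pair at the same place. Positions are those of the printed stretches, flanking bases included. The longest run shared by LILRB1 and LILRB2, both on chromosome 19, is 169 bases long. Its printed stretch lies over 3 exons (chr19:54634677-54635288, plus strand, and chr19:54276272-54276893, minus strand).
LILRB1: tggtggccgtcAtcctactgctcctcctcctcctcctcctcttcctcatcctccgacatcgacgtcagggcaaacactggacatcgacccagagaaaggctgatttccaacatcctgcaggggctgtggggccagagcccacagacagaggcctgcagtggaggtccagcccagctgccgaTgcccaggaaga
LILRB2: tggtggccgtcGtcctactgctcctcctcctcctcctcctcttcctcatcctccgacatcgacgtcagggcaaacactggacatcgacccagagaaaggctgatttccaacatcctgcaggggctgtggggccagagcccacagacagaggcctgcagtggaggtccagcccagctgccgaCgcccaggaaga

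SIRPA and SIRPB1, an inhibitory and an activating form on chromosome 20, shared a coding run of 270 bases (printed stretches chr20:1921559-1922452, plus strand, and chr20:1604003-1604895, minus strand).
SIRPA: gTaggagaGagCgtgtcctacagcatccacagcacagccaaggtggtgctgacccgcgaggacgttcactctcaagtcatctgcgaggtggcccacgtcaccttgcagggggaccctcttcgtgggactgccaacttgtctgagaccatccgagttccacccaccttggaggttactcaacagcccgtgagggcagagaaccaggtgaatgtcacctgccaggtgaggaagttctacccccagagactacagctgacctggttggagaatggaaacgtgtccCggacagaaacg
SIRPB1: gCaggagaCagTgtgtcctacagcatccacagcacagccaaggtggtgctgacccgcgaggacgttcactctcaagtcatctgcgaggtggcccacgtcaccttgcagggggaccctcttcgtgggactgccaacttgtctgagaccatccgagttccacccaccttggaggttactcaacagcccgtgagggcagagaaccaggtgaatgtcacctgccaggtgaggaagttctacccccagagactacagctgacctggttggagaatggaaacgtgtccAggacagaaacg

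LILRA1 and LILRB1, an activating and an inhibitory form, shared a shorter run of 84 bases (printed stretches chr19:54595350-54595693 and chr19:54632185-54632518, both on the plus strand).
LILRA1: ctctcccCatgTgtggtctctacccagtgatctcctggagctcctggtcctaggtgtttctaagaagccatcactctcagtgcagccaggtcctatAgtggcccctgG
LILRB1: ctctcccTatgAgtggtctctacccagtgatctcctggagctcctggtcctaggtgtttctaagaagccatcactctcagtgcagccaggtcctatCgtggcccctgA

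Across whole coding transcripts the shared part differed widely between members. Of all distinct words of 100 bases in a member's GENCODE v29 coding transcripts, 14.5% for SIRPB1, 13.6% for LILRA2, 10.4% for LILRB3 and 8.20% for SIRPA also stood in a transcript of another gene, on either strand. The share was 3.08% for LAIR1, 2.75% for LILRB2 and 2.32% for LILRB1. No word of 100 bases of LILRB4, LILRA1 or LILRA5 stood in another gene. With words of 50 bases the range was 1.19% for LILRB4 to 27.4% for LILRB3. For LILRA2, all 748 shared words of 100 bases stood in the lincRNA AC245036.5, which lies within LILRA2 itself on the same strand. For SIRPB1, 609 of its shared words stood in AL049634.2, an annotated gene that overlaps it on the same strand, and 306 in SIRPA. Neither of those overlapping genes is listed by symbol in the deposited tables. No source used here gives the read length, so these shares describe the annotation, not the reads. Only 1 of the 60 estimated counts of the members was a whole number (tolerance 0.005), and in each library 78.9% to 80.4% of all genes' values were not whole.

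**Figure D1:**
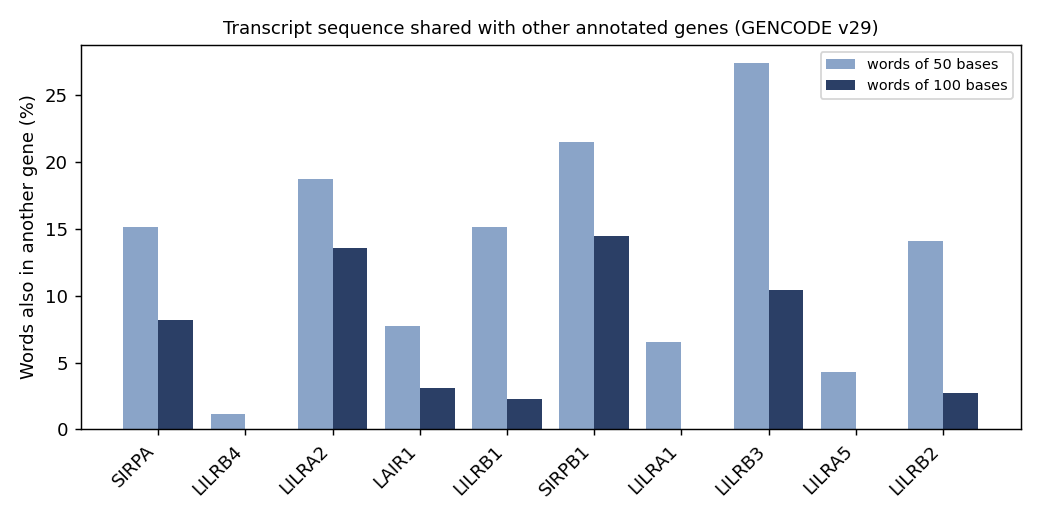
Share of distinct transcript words, in percent, that also stand in another gene of GENCODE v29, for each receptor gene (x axis, by falling FPKM) and for words of 50 bases (light) and 100 bases (dark). LILRB4 has the lowest share at 50 bases, 1.19%, and LILRB3 the highest, 27.4%.

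Among the inhibitory forms, SIRPA and LILRB4 were the abundant ones. SIRPA lies on chromosome 20 (1894167 to 1940592, plus strand, GENCODE v29) and measured 58.98, 61.98 and 61.06 FPKM in the shSPP1#2 libraries, against 60.24, 59.04 and 61.57 FPKM in the shNC libraries. FPKM are fragments per kilobase of transcript, scaled to library depth, as the authors computed them. The SIRPA groups overlapped, and the lowest and the highest value both stood in shSPP1#2 medium. LILRB4, a receptor of monocytic cells known to bind apolipoprotein E, measured 50.9, 50.7 and 51.0 FPKM in the shSPP1#2 libraries, against 52.9, 52.0 and 54.9 FPKM in the shNC libraries. All 3 shSPP1#2 values of LILRB4 lay below all 3 shNC values on the FPKM scale. On the scale of depth-scaled counts without length (CPM) they overlapped, at 90.75, 96.11 and 94.98 CPM in the shSPP1#2 libraries and 96.7, 95.4 and 96.2 CPM in the shNC libraries.

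LAIR1, a collagen receptor, measured 14.6, 13.4 and 13.2 FPKM in the shSPP1#2 libraries, against 14.4, 13.3 and 12.3 FPKM in the shNC libraries. LILRB1 measured 12.2, 12.5 and 13.7 FPKM in the shSPP1#2 libraries, against 11.86, 11.73 and 11.97 FPKM in the shNC libraries. LAIR1 overlapped between the groups, whereas each LILRB1 value of shSPP1#2 medium lay above each of shNC medium in FPKM. In CPM the LILRB1 groups overlapped, since shSPP1#2 replicate 1 at 35.87 CPM lay just below shNC replicate 2 at 35.94 CPM.

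LILRB3 and LILRB2 were low. LILRB3 measured 1.40, 1.35 and 1.27 FPKM in the shSPP1#2 libraries, against 1.06, 1.94 and 1.43 FPKM in the shNC libraries, and the shNC values enclosed the others. LILRB2 was listed at 6.01, 2.42 and 4.51 estimated counts in the shSPP1#2 libraries, against 1.29, 5.01 and 0 in the shNC libraries. Its FPKM did not exceed 0.12 in any library. The 0 of shNC replicate 3 allows up to 3 counts in that library, for counting error only, and LILRB2 did not pass the filter on low counts. LILRB1 and LILRB2 summed, a quantity chosen after the values were seen, came to 12.9 ± 0.80 FPKM in shSPP1#2 medium and 11.9 ± 0.07 FPKM in shNC medium (SD, n = 3 each). Its groups did not overlap, as for LILRB1 alone, which makes up nearly all of it.

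Among the activating forms, LILRA2 was the most abundant. This receptor, known to sense immunoglobulins cut by microbial proteases, measured 19.0, 20.1 and 20.9 FPKM in the shSPP1#2 libraries, against 18.8, 20.7 and 19.7 FPKM in the shNC libraries. SIRPB1 had 307, 300.2 and 290 estimated counts in the shSPP1#2 libraries, against 282, 218 and 329 in the shNC libraries, and averaged 10.1 ± 0.15 FPKM in shSPP1#2 medium and 9.35 ± 1.48 FPKM in shNC medium (SD, n = 3 each). The LILRA2 groups overlapped, and for SIRPB1 the shNC values spread widely around the close shSPP1#2 values. LILRA1 measured 2.19, 2.15 and 2.51 FPKM in the shSPP1#2 libraries, against 2.23, 2.62 and 2.26 FPKM in the shNC libraries. LILRA5 measured 0.38, 0.45 and 0.35 FPKM in the shSPP1#2 libraries, against 0.58, 0.54 and 0.14 FPKM in the shNC libraries. Both overlapped, and LILRA5 rested on 3.97 to 15.5 estimated counts per library.

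**Figure D2:**
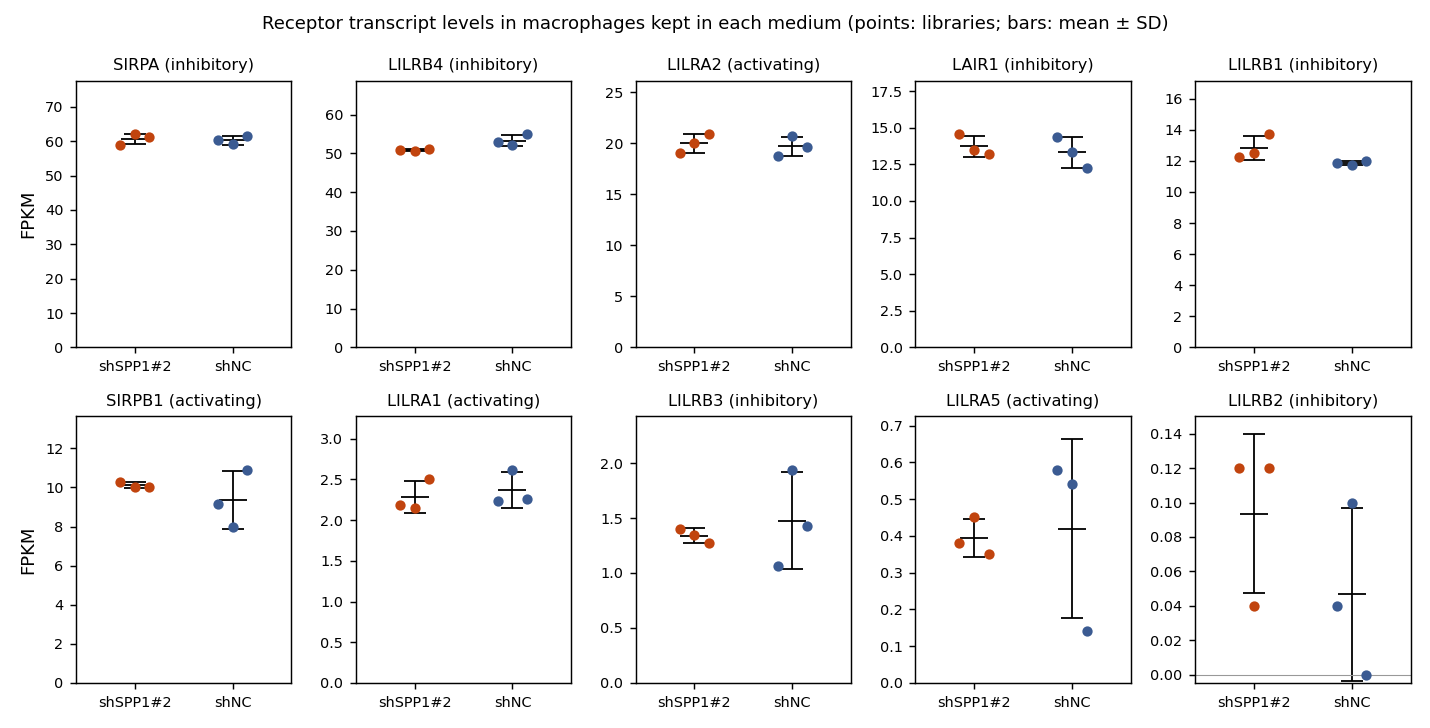
FPKM of each of the 10 receptor genes (panels, each with its own linear y axis) in the libraries of shSPP1#2 medium (left, orange) and shNC medium (right, blue); points are libraries 1, 2 and 3, and bars the mean ± SD (n = 3 each). Only LILRB1 and LILRB4 have groups that do not overlap in FPKM.

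The order of levels per transcript length was SIRPA, LILRB4, LILRA2, LAIR1, LILRB1, SIRPB1, LILRA1, LILRB3, LILRA5 and LILRB2, by mean FPKM over the 6 libraries. The ranges over the 6 libraries overlapped for LAIR1 (12.3 to 14.6 FPKM) and LILRB1 (11.7 to 13.7 FPKM), and these neighbours did not differ beyond their spread. No other pair of neighbours overlapped. The ratio of mean FPKM between neighbours was smallest, after that pair, for SIRPA over LILRB4 at 1.16, and largest for LILRA5 over LILRB2 at 5.81, where LILRB2 rests on a few counts. The mean FPKM of LILRB4 was 52.1, of LILRA2 19.8 and of LILRB2 0.07. The transcript length implied by counts, FPKM and library totals was 3.99 to 4.03 kb for SIRPA and 1.75 to 1.89 kb for LILRB4. It was 2.91 to 3.03 kb for LILRB1, 1.89 to 1.96 kb for LILRA2 and 1.42 to 1.51 kb for SIRPB1. It was 2.57 to 2.79 kb for LILRA1, 1.22 to 1.37 kb for LILRA5, 3.23 to 3.41 kb for LAIR1 and 2.68 to 2.72 kb for LILRB3. The length varied between libraries, least for SIRPA and LILRB3, so FPKM and counts are not in a fixed ratio.

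Within each family 1 gene made up most of the signal. LILRB4 accounted for 78.7%, 78.5% and 77.2% of the summed FPKM of the 4 LILRB members in the shSPP1#2 libraries, against 80.3%, 79.1% and 80.4% in the shNC libraries. The groups did not overlap in FPKM, as the LILRB1 and LILRB4 FPKM values above already show. In CPM the groups overlapped for LILRB1 and for LILRB4, and this share was not computed from counts. LILRA2 accounted for 87.9% to 88.5% of the summed FPKM of the 3 LILRA members in the shSPP1#2 libraries, against 86.7% to 89.1% in the shNC libraries.

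Activating forms were the smaller part of each family, by similar shares in both media. The LILRA members summed to 21.6, 22.7 and 23.7 FPKM in the shSPP1#2 libraries, against 21.6, 23.8 and 22.1 FPKM in the shNC libraries. The LILRB members summed to 64.6, 64.6 and 66.1 FPKM in the shSPP1#2 libraries, against 65.8, 65.8 and 68.3 FPKM in the shNC libraries. The LILRA sum was 25.8 ± 0.69% of the LILR FPKM in shSPP1#2 medium and 25.2 ± 1.17% in shNC medium (SD, n = 3 each), a difference of 0.59 percentage points that is smaller than either SD. Leaving out shNC replicate 3 made it 0.18, and leaving out shNC replicate 2 made it 1.26. SIRPB1 was 14.3 ± 0.50% of the SIRPA and SIRPB1 FPKM in shSPP1#2 medium and 13.4 ± 1.59% in shNC medium (SD, n = 3 each). This difference of 0.90 percentage points is smaller than the SD in shNC medium. It was 0.29 from estimated counts, 0.15 with shNC replicate 2 left out and 1.73 with shNC replicate 3 left out. Over all 10 members the activating forms were 18.8%, 18.9% and 19.4% of the summed FPKM in the shSPP1#2 libraries, against 17.96%, 18.7% and 18.8% in the shNC libraries, and the groups overlapped. No test was made on these sums and shares, since the members were a chosen list. Fewer cells that carry a receptor and less RNA per cell cannot be told apart in such bulk libraries.

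**Figure D3:**
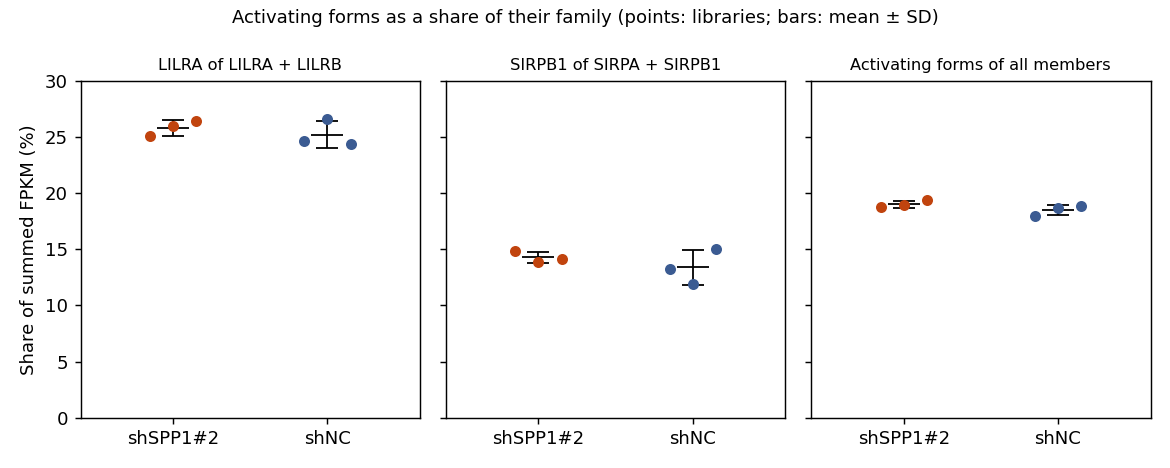
Activating forms as a percent of the summed FPKM of LILRA and LILRB members (left), of SIRPA and SIRPB1 (middle) and of all 10 members (right), for shSPP1#2 medium (orange) and shNC medium (blue); points are libraries and bars the mean ± SD (n = 3 each). The groups overlap in all 3 panels, near 25%, 14% and 19% of the signal.

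No receptor gene passed the test between the media. Of the 10 members 9 passed the low-count filter, and 0 of these 9 had an adjusted p below 0.05 in the edgeR quasi-likelihood test with Benjamini-Hochberg adjustment, where 0 of 13555 genes (0%) did. At an unadjusted p below 0.05 the count was 0 of 9 members, where 928 of the 13555 genes (6.85%) reached it. DESeq2, limma-voom and limma on log2 FPKM also called 0 members, although DESeq2 gave an adjusted p to only 1 of the 9. In log2 CPM 0 of 9 members had groups that did not overlap, where 11.1% of all genes tested did. In FPKM 2 of 9 did not overlap, where 10.5% of all genes tested did. None of the 9 was higher (3.45% of all genes) or lower (3.39%) at that unadjusted p. Log2 fold changes were positive for 4 members, where 49.9% of all genes were positive, and negative for 5, with a median of -0.0036, beside a median of -0.00030 over all genes tested.

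Among the inhibitory forms, LILRB1 had the smallest p of the members. Its log2 fold change was 0.089 (standard error 0.060, 95% interval -0.037 to 0.21, edgeR adjusted p = 0.842). That is 1.06-fold, with an interval from 0.98-fold to 1.16-fold. Without shSPP1#2 replicate 3, the library with its highest value, the log2 fold change was 0.043. The log2 fold change was 0.050 for LAIR1 (-0.081 to 0.18), -0.033 for LILRB4 (-0.13 to 0.060) and -0.0036 for SIRPA (-0.095 to 0.087), all with edgeR adjusted p-values of at least 0.927. The intervals of SIRPA and LILRB4 thus leave out changes of more than 0.13 on the log2 scale in either direction. For LILRB3 the log2 fold change was -0.12 (-0.51 to 0.27), and it was 0.12 once shNC replicate 2, its highest library, was left out.

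The activating forms also stayed below the threshold. The log2 fold change was 0.067 for SIRPB1 (-0.13 to 0.26), 0.040 for LILRA2 (-0.088 to 0.17) and -0.0053 for LILRA1 (-0.26 to 0.25). Leaving out shNC replicate 3, its highest library, gave SIRPB1 a value of 0.18, and leaving out shNC replicate 2, its lowest, gave -0.018. LILRA5 had a log2 fold change of -0.099 with an interval from -1.04 to 0.84, so a change of 1.5-fold either way was not detectable at its depth. Over the 10635 genes whose mean log2 CPM reached 2 the median standard error was 0.065, and it was 0.043 for SIRPA and 0.19 for LILRB3.

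**Figure D4:**
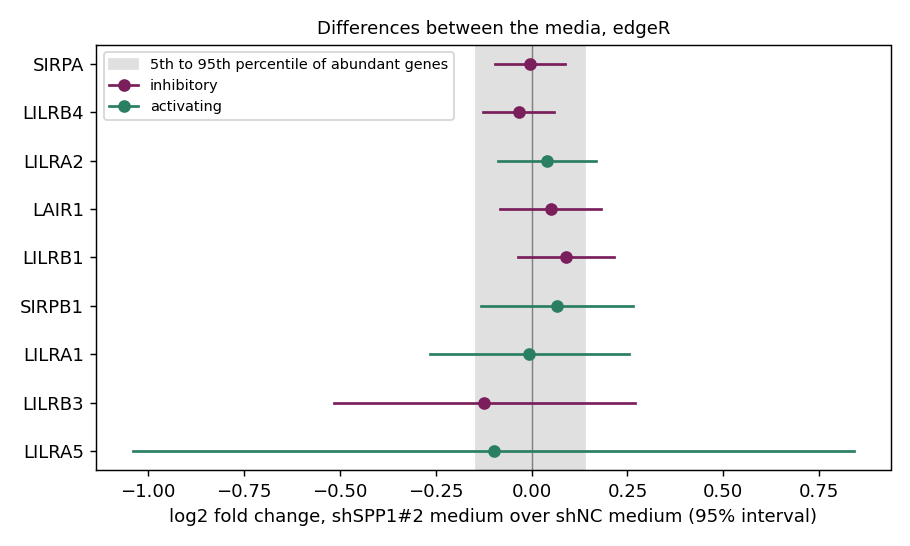
Log2 fold change of shSPP1#2 medium over shNC medium for the 9 tested receptor genes, with 95% intervals from edgeR (purple: inhibitory, green: activating); the grey band spans the 5th to 95th percentile of the 10635 genes whose mean log2 CPM reached 2, from -0.15 to 0.14. Every interval includes 0, and that of LILRA5 is the widest.

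Of the FPKM sums over genes that share sequence, that of LILRB1 and LILRB2 above did not overlap between the media, and the others did. LILRB3 and LILRA6, an activating LILR gene outside the 10 members, summed, again chosen after the values were seen, came to 2.05, 2.57 and 1.97 FPKM in the shSPP1#2 libraries, against 1.88, 2.78 and 2.50 FPKM in the shNC libraries. LILRB3 took 52.5% to 68.3% of that sum in the shSPP1#2 libraries, against 56.4% to 69.8% in the shNC libraries, so the division between these genes varied as much within a medium as between media. SIRPA and SIRPB1 summed to 70.8 ± 1.39 FPKM in shSPP1#2 medium and 69.6 ± 2.74 FPKM in shNC medium (SD, n = 3 each). The single values of members are uncertain to the extent that the authors' counting divided reads from shared sequence. With words of 100 bases this concerns LILRB3, SIRPA, SIRPB1, LAIR1, LILRB1, LILRB2 and, through AC245036.5 alone, LILRA2. With words of 50 bases it concerns all 10 members, LILRA1 with 6.54% of its words.

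The other genes of the families were low or near 0. LILRA6 measured 0.65 to 1.22 FPKM in the shSPP1#2 libraries, against 0.82 to 1.07 FPKM in the shNC libraries, and LILRB5 0.22 to 0.48 FPKM in the shSPP1#2 libraries, against 0.24 to 0.34 FPKM in the shNC libraries. SIRPB2 measured 0.37 to 0.72 FPKM in the shSPP1#2 libraries, against 0.48 to 0.71 FPKM in the shNC libraries. LILRA6 thus lay above LILRA5 and LILRB2 in each library and overlapped LILRB3 in range. LILRA3, SIRPG, SIRPD and LAIR2 had at most 3.80 estimated counts in any library. LILRA4 is not listed by symbol in the deposited tables, so its level is not given. LILRA6, LILRB5 and SIRPB2 were tested, and 0 of these 3 passed over all genes (edgeR).

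The signalling partners of both kinds of receptor were present, and 0 of 20 tested passed over all genes (edgeR). Their median log2 fold change was 0.0055. At an unadjusted p below 0.05 (edgeR) 1 of the 20 was higher and 1 lower, where 3.45% and 3.39% of all genes were. FCER1G, the gamma chain used by the LILRA forms, measured 346, 364 and 374 FPKM in the shSPP1#2 libraries, against 391, 457 and 378 FPKM in the shNC libraries. Its log2 fold change was -0.18 (-0.31 to -0.055, edgeR adjusted p = 0.575), and its groups did not overlap. FCER1G is also a macrophage marker. Of 17 markers of that list tested, 0 passed over all genes (edgeR). Their log2 fold changes were negative for 12 and positive for 5, where 49.9% of all genes were positive. The median of the list was -0.057. Groups did not overlap in log2 CPM for 5 of the 17, where 11.1% of all genes tested did not. The markers of smallest p after FCER1G were AIF1, FCGR3A and CD163, with log2 fold changes of -0.21, -0.24 and -0.23. LAPTM5 and ITGAX, with FCER1G the most abundant of the list, had -0.057 and 0.011. The highest log2 fold change of the list was 0.13. The part of this list in the FCER1G value was not tested. TYROBP, the adaptor of SIRPB1, measured 159, 144 and 155 FPKM in the shSPP1#2 libraries, against 157, 189 and 156 FPKM in the shNC libraries, with a log2 fold change of -0.13 (-0.27 to 0.0070). Both adaptors were highest in shNC replicate 2. FYB1, a scaffold protein of integrin signalling, had a log2 fold change of 0.38 (0.13 to 0.63, edgeR adjusted p = 0.509), at 1.81 ± 0.25 FPKM in shSPP1#2 medium and 1.40 ± 0.085 FPKM in shNC medium (SD, n = 3 each). The phosphatase genes PTPN6, PTPN11 and INPP5D had log2 fold changes of 0.017, 0.015 and 0.038. PTPN6 averaged 55.0 ± 0.88 FPKM in shSPP1#2 medium and 54.1 ± 0.66 FPKM in shNC medium (SD, n = 3 each).

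Ligands made by the same cells were dominated by MHC class I. Of 16 tested ligand genes 0 passed over all genes (edgeR). Their median log2 fold change was -0.031, with 6 positive and 10 negative, where 49.9% of all genes were positive. B2M, the light chain of MHC class I, averaged 2036 ± 19.8 FPKM in shSPP1#2 medium and 2124 ± 36.1 FPKM in shNC medium (SD, n = 3 each). Its log2 fold change was -0.066 (-0.16 to 0.027). B2M was the 1 of 16 ligands tested whose groups did not overlap in log2 CPM, where 11.1% of all genes tested did not. HLA-B, a heavy chain that LILRB1 binds, averaged 1001 ± 32.1 FPKM in shSPP1#2 medium and 1019 ± 18.8 FPKM in shNC medium (SD, n = 3 each), with a log2 fold change of -0.031 (-0.13 to 0.067). CD47, the ligand of SIRPA, averaged 6.63 ± 0.24 FPKM in shSPP1#2 medium and 6.30 ± 0.53 FPKM in shNC medium (SD, n = 3 each), with a log2 fold change of 0.076 (-0.064 to 0.22). COL3A1, a collagen chain and so a candidate partner of LAIR1, had the smallest p of the ligands, with a log2 fold change of -1.42 (-2.36 to -0.48, edgeR adjusted p = 0.512). It measured 0.06 to 0.14 FPKM in the shSPP1#2 libraries, against 0.10 to 0.39 FPKM in the shNC libraries, and its groups overlapped. COL1A2 measured 0.24 to 0.30 FPKM in the shSPP1#2 libraries, against 0.15 to 0.79 FPKM in the shNC libraries.

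Other paired and inhibitory receptors of myeloid cells likewise had no call, with 0 of 25 tested past the threshold over all genes (edgeR) and a median log2 fold change of 0.015. PECAM1, an adhesion receptor with inhibitory motifs, averaged 135 ± 3.38 FPKM in shSPP1#2 medium and 138 ± 4.28 FPKM in shNC medium (SD, n = 3 each), and CD300A averaged 108 ± 6.37 FPKM in shSPP1#2 medium and 105 ± 10.4 FPKM in shNC medium. OSCAR, a collagen receptor that signals through FCER1G, had a log2 fold change of 0.15 (0.035 to 0.27, edgeR adjusted p = 0.618). TREM1, an amplifier of inflammation that signals through TYROBP, had one of -0.25 (-0.49 to -0.018, edgeR adjusted p = 0.691). SIGLEC5 had a log2 fold change of -0.48 (-0.95 to -0.0076, edgeR adjusted p = 0.724). It measured 0.55 to 0.70 FPKM in the shSPP1#2 libraries, against 0.66 to 1.11 FPKM in the shNC libraries. OSCAR, TREM1 and SIGLEC5 had the smallest p of this list, and the groups of each overlapped in log2 CPM. At an unadjusted p below 0.05 (edgeR) 1 of the 25 was higher and 2 were lower, where 3.45% and 3.39% of all genes were.

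The genes whose profile over the 6 libraries lay nearest to that of LILRB1 were GPRIN3, PCGF3 and SLC41A2. Likeness was the root mean square distance between log2 CPM values after subtracting each gene's mean, over 10634 genes. The distances were 0.015, 0.018 and 0.018, the smallest among the 10634 genes, where the median gene lay at 0.098. The centred log2 CPM of LILRB1 was -0.020, 0.014 and 0.14 in the shSPP1#2 libraries, against -0.071, -0.018 and -0.041 in the shNC libraries, and that of GPRIN3 was -0.045, 0.038 and 0.14 in the shSPP1#2 libraries, against -0.082, -0.014 and -0.035 in the shNC libraries. In both genes shSPP1#2 replicate 3 was the highest library and shNC replicate 1 the lowest. GPRIN3 was picked for its nearness over these same 6 libraries, so this likeness follows from the choice and is not a separate result.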

How the data were processed

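Polyadenylated RNA of 6 libraries (3 for shSPP1#2 medium, 3 for shNC medium, by sample title) was extracted with TRIzol and sequenced on the DNBSEQ platform, per the labels' protocols. The authors deposited estimated counts per gene, which are not whole numbers, and FPKM values per gene. Per the submitters' processing notes, the tools were RSEM, HISAT2 2.0.4 and Bowtie2 2.2.5, and the build was GRCh38.p13; their order is unstated. No source used here gives strand use, read length or annotation. Stray text lines (20) were dropped from the FPKM table.

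Estimated counts were rounded, filtered with filterByExpr, normalized by TMM and put through the quasi-likelihood test of edgeR 4.0.16 (R 4.3.3), with no block, on 13555 genes with Benjamini-Hochberg adjustment over all of them. Calls were made at an adjusted p below 0.05. Total counts of 18113591 to 20626346 per library gave a biological coefficient of variation of 4.54%. Within groups, libraries differed beyond sampling noise (chi-square over its degrees of freedom, 3.09 to 4.16). The test was tried on simulated counts, with changes planted only in genes of higher counts than LILRB3 and LILRA5. It recovered 56% of planted log2 fold changes of 0.25 and 100% of those of 1. With no change planted it called 1 gene. Alternatives were other scalings, filters, a replicate block, DESeq2 1.42.0, limma 3.58.1 and single libraries left out. The members and the gene lists were chosen with earlier results of these data known. Named genes were all members, SPP1, the other family genes, CD47, the 3 most abundant and up to 4 of smallest p per list (some are given), and the 3 genes nearest in profile to the member of smallest p. PTPN6, PTPN11 and INPP5D fall outside this rule and were named for their role after their values were seen. Sequences and positions came from GENCODE v29 (GRCh38) by gene symbol. Plots were drawn with matplotlib 3.10.9. Some items among the ligand genes and shared sequences are not reported here.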

Additional observations from a re-analysis of the deposited data

How the results depend on the processing

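The number of members called was 0 under each of the 17 alternatives run. The number of genes called was 0 as reported and 0 with RLE, upper-quartile or total-count scaling, with a CPM of at least 1 in 3 libraries and on log2(FPKM + 1). It was 25 with DESeq2, which adjusted over 1893 genes, 18 with no low-count filter, 3 with robust dispersion, 1 with limma-voom, 1 on log2(FPKM + 0.1), and 1 to 10 with single libraries left out. With the replicate number as a block it was 59. Deviations of same-numbered libraries correlated at 0.20, 0.28 and 0.081 for numbers 1, 2 and 3. The labels give no shared batch and do not say that the numbers pair samples, so the samples were not taken as paired. As a hint from the data towards pairing, 5 of 6 libraries correlated best with their own number. The block gave LILRB1 a log2 fold change of 0.088 (edgeR adjusted p = 0.618).

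The log2 fold changes of 6 members changed sign under at least 1 alternative. SIRPA measured 0.0092 and 0.0091 on log2(FPKM + 0.1) and log2(FPKM + 1) and 0.0015 with total-count scaling, and -0.027 to 0.016 with single libraries left out. LILRA1 measured 0.00036 with total-count scaling and -0.084 to 0.090 with single libraries left out. LILRA5 measured 0.062 on log2(FPKM + 0.1), 0.099 with limma-voom and -0.52 to 0.19 with single libraries left out. LAIR1 ran from -0.0041 to 0.099, LILRB3 from -0.32 to 0.12 and SIRPB1 from -0.018 to 0.18 with single libraries left out. LILRB1, LILRB4 and LILRA2 kept their sign under all 17, but with single libraries left out LILRB1 ran from 0.043 to 0.12, LILRB4 from -0.050 to -0.0089 and LILRA2 from 0.0097 to 0.082. The difference in LILRA share ran from 0.18 to 1.26 and in SIRPB1 share from 0.15 to 1.73 percentage points with single libraries left out, and was 0.41 and 0.29 from counts. Depth limits LILRA5 and LILRB2 most.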
